A study of Mus musculus with 18 samples.

Results

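The comparison described here is that of R6/1 with wild-type brain hemispheres at 22 weeks of age, which used 5 of the 18 arrays of the series: the 2 titled as transgenic and the 3 titled as wild type at this age. R6/1 mice carry a transgene of exon 1 of human huntingtin, with a long CAG tract and the human gene's own promoter, beside both intact mouse Htt genes, and are a model of Huntington's disease. The controls were wild-type littermates without the transgene, and no strain background is named in the labels. RNA of 1 hemisphere per mouse was hybridised to Affymetrix Mouse Genome 430 2.0 arrays, which measure each transcript with 1 or several probe sets and give a linear signal in arbitrary units. The remaining 13 arrays came from R6/1 and wild-type hemispheres of 18 weeks (6 arrays) and 27 weeks (7 arrays) and lent their spread to the tests. The design text of the series gives 3 transgenic mice at each age, whereas the titles gave 2 at 22 weeks and 4 at 27 weeks. The titles were followed.

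In Huntington's disease the medium spiny neurons of the striatum, which use GABA and carry dopamine receptors, are the cells affected most. The mutant protein fragment gathers in nuclei and is known to lower transcripts that mark these neurons, as well as transcripts of neuropeptides and of genes switched on by neuronal activity. A hemisphere holds the striatum beside cortex, hippocampus, thalamus, hypothalamus and, depending on where the brain was divided, olfactory bulb, cerebellum and hindbrain. In RNA of such a tissue, fewer cells of a type and less RNA per cell cannot be told apart.

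The 5 hemispheres did not hold the same regions. Gabra6 encodes a subunit of the GABA receptors of cerebellar granule cells and had signals of 1017 and 1396 in the R6/1 arrays and of 1162, 9.9 and 0.6 in wild-type arrays 1, 2 and 3. Pcp2, which marks Purkinje cells, the output neurons of the cerebellar cortex, had signals of 794 and 786 in the R6/1 arrays and of 1306, 9.6 and 2.5 in wild-type arrays 1, 2 and 3. Wild-type arrays 2 and 3 were therefore near background for both markers, whereas wild-type array 1 and both R6/1 arrays were high. The mean log2 level of 7 markers of hindbrain and spinal cord, relative to all 18 arrays, was 0.20 and -0.09 in the R6/1 arrays and 0.56, -0.92 and -1.51 in wild-type arrays 1, 2 and 3, so those markers were low in the same arrays. Wild-type array 2 alone was high for Cdhr1, a marker of the output neurons of the olfactory bulb, at 283 against 25.3 to 42.7 in the other 4 arrays. One 18-week wild-type array also lacked cerebellum by Gabra6 (10.9) and held olfactory bulb by Cdhr1 (291), and no R6/1 array of any age did. The choroid plexus marker Ttr was between 6063 and 7656 in the 5 arrays, and the pituitary marker Gh at most 24.0. Kl, another choroid plexus marker, had signals of 67.8 and 79.5 in R6/1 and of 103.4, 55.6 and 43.3 in wild-type arrays 1, 2 and 3. The mean log2 level of the choroid plexus and ependyma list was 0.03 and 0.10 in R6/1. It was 0.25, -0.35 and -0.36 in wild-type arrays 1, 2 and 3. By Xist and the Y-linked Eif2s3y, R6/1 array 2 and wild-type array 2 came from females and the other 3 from males. The median signal was 26.8 to 28.1, the Gapdh ratio of 3′ over 5′ signal 0.695 to 0.735, and the correlation between any pair of these arrays 0.965 to 0.974.

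**Figure D1:**
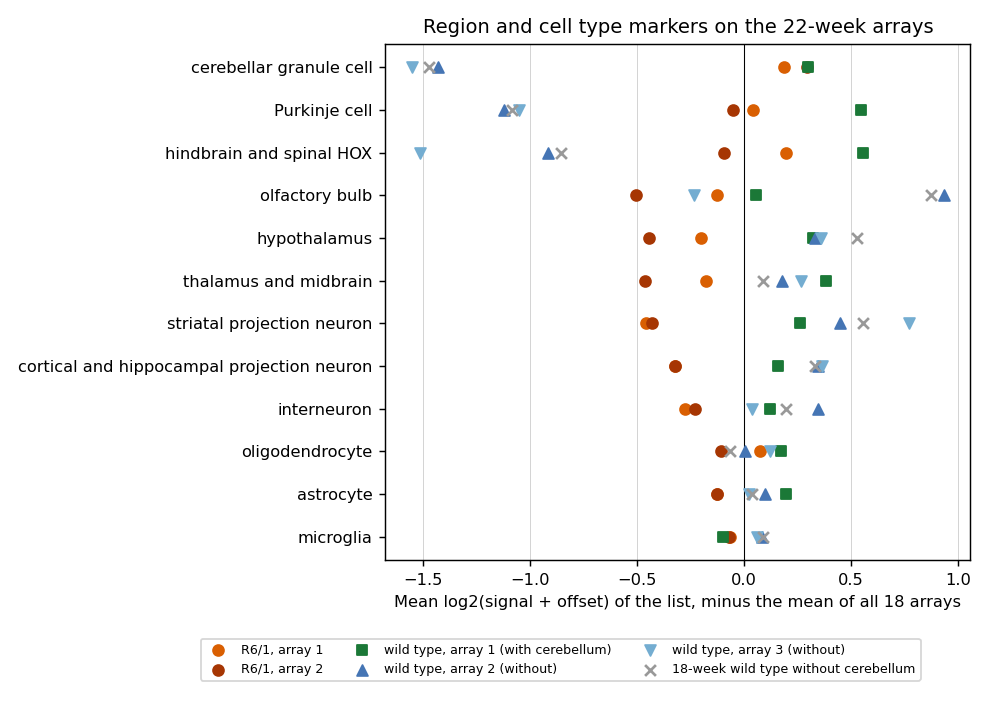
Mean log2 level of each marker list (x axis, relative to the mean of all 18 arrays) on the 5 arrays of 22 weeks and on the 18-week wild-type array without cerebellum; each point is 1 array. Wild-type arrays 2 and 3 lie at -1.43 and -1.55 for cerebellar granule cell markers, against 0.19 to 0.30 for the other 3 arrays of this age, while the striatal markers are lowest in the R6/1 arrays.

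Among the genes called at 22 weeks with all arrays, more were lower than higher in R6/1 hemispheres. With all 3 wild-type arrays as the reference, 366 of 12582 genes were lower (2.91%) and 138 were higher (1.1%) at an adjusted p under 0.05 (limma, all 18 arrays, Benjamini-Hochberg over 27022 probe sets, each gene read from its brightest probe set). These were 562 probe sets lower (2.08%) and 236 higher (0.873%). The same contrast against wild-type array 1 alone, the one with cerebellum, called 24 genes lower (0.191%) and 6 higher (0.0477%), in a fit of 15 arrays in which that single array was assumed to vary like the other groups. A further comparison set the R6/1 arrays against all 6 wild-type arrays with cerebellum, of all 3 ages, and called 379 genes lower (3.01%) and 128 higher (1.02%), or 572 (2.12%) and 206 (0.762%) probe sets. These comparisons share arrays and are not independent of each other. A term for absent cerebellum, added to the fit of all 18 arrays, left 86 genes lower (0.684%) and 15 higher (0.119%). The all-array counts of probe sets depended on each array of this age: they were 180 lower and 47 higher without R6/1 array 1, 140 and 16 without R6/1 array 2, 806 and 538 without wild-type array 1, 293 and 106 without wild-type array 2, and 197 and 62 without wild-type array 3. Without 18-week R6/1 array 3 they were 724 and 361. For each of the 366 and 138 genes, both R6/1 arrays lay on the same side of all 3 wild-type arrays of this age. Leaving out 1 array therefore could not change a direction, and the kept directions in these 6 fits are no check. Without 1 array of this age only 94 to 340 of the 366 and 5 to 116 of the 138 stayed called. With 2 arrays against 3, an exact two-sided permutation test of 1 gene cannot go below 0.2, so the calls rest on the spread shared across groups and ages.

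Most of the called genes kept at least 0.5 of their difference when wild-type array 1 was the only reference, which is a rule of size and not a test. Array 1 is also 1 of the 3 arrays of the all-array reference. Genes whose wild-type arrays differed widely were less readily called, so these shares were partly set by the calling step. They do not hold for genes that were not called, which are described further on. Of the 366 lower genes, 348 (95.1%) were below array 1 on both R6/1 arrays by at least 0.5 of the all-array log2 difference, with a median log2 difference of -0.77 against all 3 arrays and -0.63 against array 1. Of these 348 genes, 22 also passed the test against array 1. Of the 138 higher genes, 130 (94.2%) were also above array 1 by that rule, with medians of 0.54 and 0.47, and 3 of the 130 passed the test against array 1. These 478 genes make up the class lower or higher against both references, by size. The difference from array 1 fell below 0.5 of the all-array difference for 18 lower genes (4.92%) and 8 higher genes (5.8%). They are described further on as the genes that followed the arrays without cerebellum, a name for this rule of size only. Both R6/1 arrays lay outside the range of the 6 wild-type arrays with cerebellum for 17 of these 18 falls (94.4%) and 6 of the 8 rises (75%). In the class against both references they did so for 330 of the 348 falls (94.8%) and 117 of the 130 rises (90%). The size of this second class depended on the fit: with limma's array weights it held 192 genes, beside 513 lower and 284 higher against both references. Over all measured genes, both R6/1 arrays lay below all 3 wild-type arrays of this age for 2071 (16.5%) and above them for 2756 (21.9%). They lay below all 6 wild-type arrays with cerebellum, of which array 1 is a member, for 10.6% of all genes and above all 6 for 12.1%. The median over all genes was 0.04 with all arrays and 0.02 against array 1, so a list near those values did not stand apart from the rest.

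**Figure D2:**
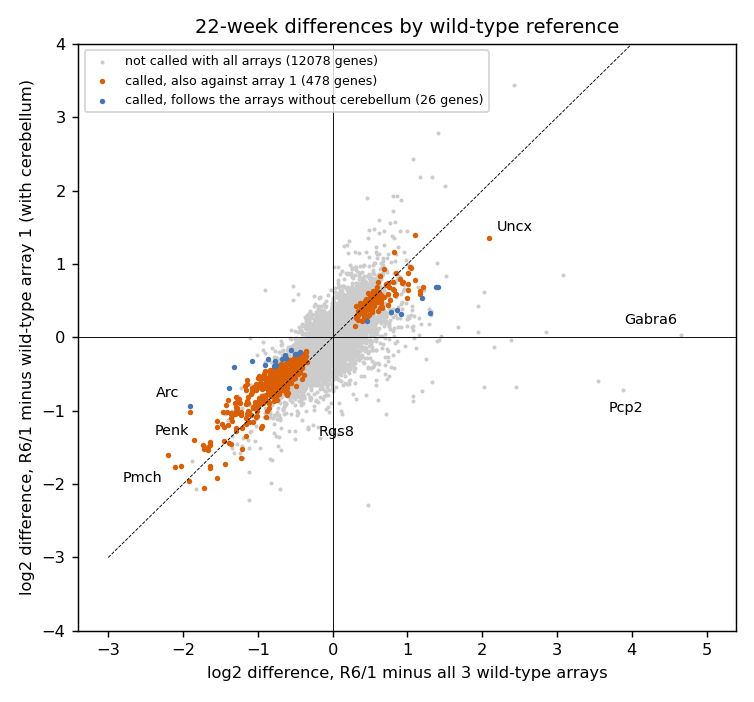
Log2 difference of each of 12582 genes between R6/1 and all 3 wild-type arrays (x axis) and between R6/1 and wild-type array 1, which holds cerebellum (y axis); each point is 1 gene, coloured by class, and the dashed line marks equal values. The 478 called genes that kept at least 0.5 of their difference against array 1 are coloured as lower or higher against both references, whereas Gabra6 and Pcp2 lie far to the right with values near or below 0 on the y axis.

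Transcripts of striatal projection neurons were the list with most members lower at 22 weeks. Of 33 measured members, 24 fell and 0 rose with all wild-type arrays, with a median log2 difference of -0.92, and 7 fell against array 1, where 32 of 33 members had a negative difference and the median was -0.66. Both R6/1 arrays lay below all 6 wild-type arrays with cerebellum for 29 of the 33. Penk, the precursor of enkephalin in neurons of the indirect pathway, had signals of 333 and 348 in the R6/1 arrays and of 926, 1056 and 1249 in wild-type arrays 1, 2 and 3. The groups did not overlap, which holds for every gene called with all arrays and is no added support. The R6/1 arrays were close to each other. Its log2 difference was -1.63 ± 0.12 (SE; 3.11-fold lower, adjusted p = 3.9e-06, limma) with all arrays and -1.43 ± 0.15 (2.69-fold, adjusted p = 0.0029) against array 1. Ppp1r1b encodes DARPP-32, the phosphatase inhibitor that relays dopamine signals, and had signals of 153 and 181 in the R6/1 arrays and of 384, 476 and 589.7 in wild-type arrays 1, 2 and 3. Both R6/1 arrays were again below every wild-type array, by 2.8-fold with all arrays (adjusted p = 0.00022) and 2.26-fold against array 1 (adjusted p = 0.048). Scn4b, a sodium channel subunit, had signals of 175 and 201 in the R6/1 arrays and of 507, 433 and 641 in wild-type arrays 1, 2 and 3, which is 2.72-fold lower with all arrays and 2.66-fold lower against array 1 (adjusted p = 0.0082). Arpp19, a phosphoprotein regulated by cyclic AMP, was 2.06-fold lower with all arrays and 1.85-fold lower against array 1 (adjusted p = 0.0064), and its signals in R6/1 were 711 and 734 against 1339.8, 1411 and 1767. The wild-type array with cerebellum was the lowest of the 3 for Penk, Ppp1r1b and Arpp19 and the middle one for Scn4b.

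The remaining striatal genes called against array 1 were Kcnip2, Rgs4 and Pcp4. Kcnip2, a subunit that shapes A-type potassium currents, had signals of 159.8 and 172 in the R6/1 arrays and of 373, 519.9 and 619 in wild-type arrays 1, 2 and 3, a fall of 2.91-fold with all arrays and 2.21-fold against array 1 (adjusted p = 0.037). Rgs4, which shortens signalling by G proteins, fell 1.96-fold and 1.82-fold against these references, and Pcp4, a calmodulin regulator also found in Purkinje cells, fell 1.72-fold and 1.76-fold. Pcp4 was the member whose difference changed least between references among those named here. The dopamine receptor gene Drd1 had signals of 89 and 73.6 in the R6/1 arrays and of 162, 193 and 282 in wild-type arrays 1, 2 and 3, and passed with all arrays (log2 difference -1.30 ± 0.23, adjusted p = 0.00398) but not against array 1 (-0.95 ± 0.24, adjusted p = 0.14). Drd2, the receptor of the indirect pathway, had signals of 45.2 and 49.2 in the R6/1 arrays and of 77.7, 87.7 and 135 in wild-type arrays 1, 2 and 3, with values of -0.97 (adjusted p = 0.019) and -0.66 (adjusted p = 0.38). Neither receptor overlapped between genotypes, and wild-type array 3 was the highest for both. Pde10a, the phosphodiesterase of medium spiny neurons, and Rgs9 fell 2.42-fold and 2.44-fold with all arrays. Tac1, the precursor of substance P in the direct pathway, fell 1.79-fold with all arrays and differed by a log2 value of -0.45 from array 1 (adjusted p = 0.55), whereas Pdyn, the precursor of dynorphin, did not pass either test (-0.95 and -0.79). The mean log2 level of the list, relative to all 18 arrays, was -0.45 and -0.43 in R6/1 and 0.26, 0.45 and 0.77 in wild-type arrays 1, 2 and 3, so the wild-type arrays without cerebellum were higher for striatal markers than the one with it.

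**Figure D3:**
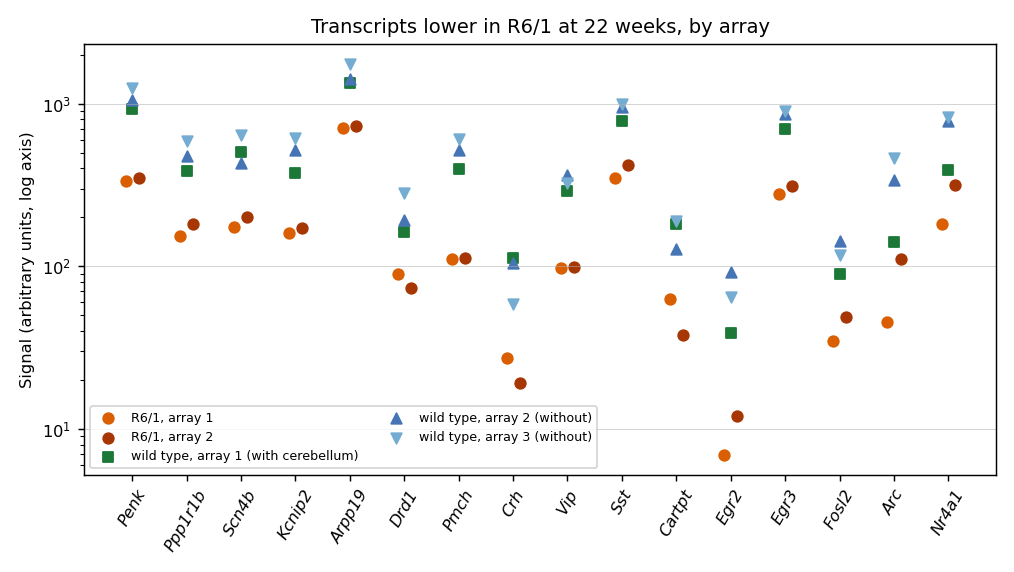
Signal (log axis, arbitrary units) of 16 transcripts of striatal, neuropeptide and activity-dependent genes on each array of 22 weeks; each point is 1 array, and wild-type array 1 (square) holds cerebellum. Both R6/1 arrays lie below all 3 wild-type arrays for each of the 16, as they do for all 366 genes called lower with all arrays. For Arc they are 45.3 and 110 against 141 for array 1 and 340 and 464 for the arrays without cerebellum.

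Neuropeptide precursors included some of the largest falls at this age. Of 27 measured, 11 fell and 0 rose with all arrays (median -0.68), and 4 fell against array 1 (Penk, Pmch, Crh and Vip; median -0.65). Pmch, the precursor of melanin-concentrating hormone in the lateral hypothalamus, had signals of 112 and 112 in the R6/1 arrays and of 394, 521 and 609 in wild-type arrays 1, 2 and 3. The R6/1 values were almost equal and lay far below every wild-type array, at 4.32-fold lower with all arrays (adjusted p = 3.4e-05) and 3.41-fold lower against array 1 (adjusted p = 0.0046). Crh, the corticotropin-releasing hormone, had signals of 27.4 and 19.2 in the R6/1 arrays and of 112, 104 and 58.7 in wild-type arrays 1, 2 and 3. Here wild-type array 3, without cerebellum, was the lowest of the wild-type arrays, and the fall was 3.31-fold with all arrays (adjusted p = 0.00042) and 4.14-fold against array 1 (adjusted p = 0.0046). Vip, a peptide of cortical interneurons and of the suprachiasmatic nucleus, had signals of 97.9 and 99 in the R6/1 arrays and of 288, 362 and 326 in wild-type arrays 1, 2 and 3, a fall of 3.17-fold and 2.83-fold against the respective references (adjusted p = 1.4e-05 and 0.0064). Penk, Pmch and Crh were the members with the smallest p against array 1, and Penk and Pmch passed in each of the 17 alternative fits of that comparison.

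Further peptides passed with all arrays but not against array 1. Cartpt, a peptide of hypothalamus and striatum, had signals of 63.3 and 38 in the R6/1 arrays and of 182, 128 and 189 in wild-type arrays 1, 2 and 3, with log2 differences of -1.63 ± 0.30 (adjusted p = 0.0068) and -1.78 ± 0.41 (adjusted p = 0.11). Sst, the somatostatin of cortical and striatal interneurons, had signals of 352 and 422 in the R6/1 arrays and of 782, 958 and 998 in wild-type arrays 1, 2 and 3, with log2 differences of -1.23 ± 0.18 (adjusted p = 0.00099) and -1.01 ± 0.21 (adjusted p = 0.078). Npy, found in many of the same interneurons, fell 2.19-fold with all arrays, and Avp, the vasopressin precursor of the hypothalamus, fell 3.62-fold (adjusted p = 0.039), with R6/1 signals of 44.2 and 40.9 against 121, 213 and 183. The groups overlapped for neither peptide. Other hypothalamic and cortical peptides did not pass: Oxt, oxytocin, differed by -0.51 and -0.76, Hcrt, hypocretin, by -0.40 and -0.02, and Cck by -0.62 and -0.24. Hcrt neurons lie beside Pmch neurons in the lateral hypothalamus, and the Hcrt signals of 65.6 and 56.2 in R6/1 overlapped those of 61.8, 92.4 and 96.4 in wild type.

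Of the genes of dopamine neurons, Slc6a3, Th and Slc18a2 fell with all arrays, and none of these 3 passed against array 1. Slc6a3, the dopamine transporter, had signals of 14.6 and 16.3 in the R6/1 arrays and of 64.9, 69.1 and 113 in wild-type arrays 1, 2 and 3, which is 4.1-fold lower with all arrays (adjusted p = 0.00093) and 3.37-fold lower against array 1 (adjusted p = 0.097). Th, tyrosine hydroxylase, makes dopamine in the midbrain and in the olfactory bulb, and had signals of 30.9 and 21.5 in the R6/1 arrays and of 50.9, 128 and 68.3 in wild-type arrays 1, 2 and 3. Its highest value was in wild-type array 2, the one high for Cdhr1, and its log2 difference was -1.39 with all arrays (adjusted p = 0.019), -0.85 against array 1 (adjusted p = 0.21) and -0.98 against the 6 arrays with cerebellum (adjusted p = 0.0021). Slc18a2, the vesicular monoamine transporter, had values of -0.95 (adjusted p = 0.017) and -1.21 (adjusted p = 0.11). In the list of thalamus and midbrain, 8 of 19 measured members fell and 0 rose with all arrays, and 0 were called against array 1 (median -0.58; 2724 of 27022 probe sets, 10.1%, had an unadjusted p under 0.05 in that limma fit). Rgs16, a regulator of G protein signalling in thalamus, fell 3.18-fold with all arrays, with R6/1 signals of 28.8 and 11 against 63.5, 70.8 and 75.7.

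Several of these peptide and amine genes are textbook targets of CREB, the factor that binds the cyclic AMP response element and switches on genes after calcium or cyclic AMP signals. The full palindromic element, TGACGTCA, which reads the same on both strands, was searched in the 250 bases before each gene's start in the RefSeq promoter table of build GRCm38.p6. It was found in 478 of 27025 genes with a promoter sequence (1.77%) and in 308 of the 10167 measured genes with a sequence (3.03%). Among the genes lower against both references by size it was in 12 of 268 (4.48%), and among those higher against both in 5 of 107 (4.67%). It was in 4 of 21 genes of the neuropeptide list (19.0%), 2 of 22 of the immediate early list (9.09%) and 1 of 28 of the striatal list (3.57%). The list shares count members with a sequence whether or not they fell. Penk, Crh, Arc and Egr3 had no sequence there and were not searched. The 3 promoters printed belong to lower genes described here that hold the element, and show how it sits close to the start in each. They are the windows of Sst at chr16:23890845-23891094, Cartpt at chr13:99900684-99900933 and Th at chr7:142899996-142900245, all on the minus strand and written 5′ to 3′, with the element in capitals.

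Sst: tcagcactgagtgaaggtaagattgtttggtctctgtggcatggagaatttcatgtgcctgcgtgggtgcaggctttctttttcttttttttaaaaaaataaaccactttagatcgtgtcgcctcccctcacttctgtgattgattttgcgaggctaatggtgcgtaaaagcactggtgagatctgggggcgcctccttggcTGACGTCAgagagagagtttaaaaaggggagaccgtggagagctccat
Cartpt: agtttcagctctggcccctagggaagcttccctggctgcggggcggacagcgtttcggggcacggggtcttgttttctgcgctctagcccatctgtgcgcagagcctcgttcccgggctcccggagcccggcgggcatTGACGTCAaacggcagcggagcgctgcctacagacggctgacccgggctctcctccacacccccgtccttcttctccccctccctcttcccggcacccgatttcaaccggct
Th: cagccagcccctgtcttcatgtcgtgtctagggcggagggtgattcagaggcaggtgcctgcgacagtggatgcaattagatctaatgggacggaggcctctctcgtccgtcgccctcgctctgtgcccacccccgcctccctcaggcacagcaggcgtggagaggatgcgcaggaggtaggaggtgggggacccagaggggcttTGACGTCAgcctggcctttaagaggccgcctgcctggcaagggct

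The element began 48, 112 and 45 bases before the start of Sst, Cartpt and Th. Each window held it once. The other lower genes with the element included Gpr6, a receptor of striatal neurons (-1.46 with all arrays and -1.02 against array 1), Sstr2, a somatostatin receptor (-0.86 and -0.72), and the kinase gene Plk2 (-0.62 and -0.46), which were chosen after their values were seen. The 5 higher genes with it were Uncx, Spag6l, Atad2b, Pop4 and Baz2b. A match is a description of these letters and shows no binding.

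Immediate early genes, which neurons transcribe within minutes of activity, were lower for many members and higher for none. Of 30 measured, 15 fell and 0 rose with all arrays (median -0.84), 2 fell against array 1 (Egr3 and Dusp14), and 30 of 30 had a negative difference from array 1 (median -0.64). Egr3, a zinc finger factor, had signals of 279 and 314 in the R6/1 arrays and of 698, 864 and 902 in wild-type arrays 1, 2 and 3. The R6/1 arrays were below all wild-type arrays, by 2.73-fold with all arrays (adjusted p = 5.8e-05) and 2.33-fold against array 1 (adjusted p = 0.017). Egr2 had the largest all-array fall among the 348 genes lower against both references by size: its signals were 6.9 and 12 against 39, 91.8 and 65, a log2 difference of -2.20 ± 0.38 with all arrays (adjusted p = 0.0039) and -1.60 ± 0.50 against array 1 (adjusted p = 0.26). The R6/1 values were near background, so the size is uncertain. Egr1 had signals of 671 and 1072 in the R6/1 arrays and of 1756, 2224 and 2411 in wild-type arrays 1, 2 and 3, 2.48-fold lower with all arrays (adjusted p = 0.0033). Dusp14, a phosphatase, fell 2-fold and 1.9-fold against the respective references, and Fosl2, an AP-1 subunit, fell 2.57-fold with all arrays (adjusted p = 0.0019). Homer1 was measured by 5 probe sets that differed in size: the brightest had a log2 difference of -0.78, and another, chosen after its values were seen, had signals of 50 and 81.6 in R6/1 against 415, 387 and 608 in wild type, a difference of -2.75 with all arrays and -2.60 against array 1 (adjusted p = 0.0082). Which Homer1 transcripts each probe set reads was not analysed here. Members not called included Fos (-1.09 and -0.65), Egr4 (-0.57 and -0.53) and Bdnf (-0.18 and -0.30). For Arc, Egr1, Fos, Nr4a1 and Npas4 the male R6/1 array 1 was lower than the female R6/1 array 2; Npas4 read 4.9 and 29.5, and its log2 difference of -1.91 ± 0.50 with all arrays (adjusted p = 0.048) was -1.03 without R6/1 array 1 (adjusted p = 0.456).

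Some of the markers of projection neurons in cortex and hippocampus fell. Of 22 measured, 8 fell and 0 rose with all arrays (median -0.60), and Lamp5 fell against array 1 (median -0.43). Lamp5, a lysosome-associated membrane protein of neurons, had signals of 349 and 341 in the R6/1 arrays and of 788, 657 and 896 in wild-type arrays 1, 2 and 3, and the fall was 2.22-fold with all arrays (adjusted p = 5.8e-05) and 2.26-fold against array 1 (adjusted p = 0.0046). Itpka, a kinase of dendritic spines, and Nrn1, neuritin, fell 2.23-fold and 1.5-fold with all arrays. Camk2a, the calcium-dependent kinase of the synapse, had signals of 909 and 643 in the R6/1 arrays and of 1369.5, 1809 and 2496 in wild-type arrays 1, 2 and 3 (log2 difference -1.26 ± 0.25, adjusted p = 0.011; -0.84 ± 0.30 against array 1, adjusted p = 0.33). Its R6/1 arrays were below all wild-type arrays, and wild-type array 3 was the highest. In the calcium signalling list 13 of 40 fell and 0 rose with all arrays (median -0.32), and 2 fell against array 1: Pcp4 and Cacng3, a subunit that traffics AMPA receptors (1.82-fold and 1.83-fold). In the potassium channel list 10 of 37 fell and 0 rose (median -0.36), Kcnip2 and Kcnh3 among them (the latter 2.04-fold with all arrays). Glutamate receptor genes fell for 3 of 20 (median -0.29), Grm2 and Grm3 among them, and GABA receptor genes for 0 of 11 (median -0.21; 4679 of 27022 probe sets, 17.3%, had an unadjusted p under 0.05 in the all-array limma fit). Of 17 interneuron markers 5 fell with all arrays (median -0.57), Vip and Sst among them.

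Further genes fell, some of them with both tests. Kalrn, an exchange factor of dendritic spines, had signals of 465 and 529 in the R6/1 arrays and of 1024, 1393 and 1467 in wild-type arrays 1, 2 and 3 and fell 2.56-fold and 2.05-fold (adjusted p = 0.00014 and 0.027). Bhlhe40, a circadian repressor, had signals of 162 and 204 in the R6/1 arrays and of 437, 397 and 457 in wild-type arrays 1, 2 and 3, with nearly equal falls of 2.32-fold and 2.36-fold (adjusted p = 5.8e-05 and 0.0082). The groups overlapped for neither gene. Tafa1, a secreted protein of neurons, fell 2.45-fold and 2.36-fold, and Otof, the calcium sensor otoferlin, fell 2.71-fold and 3.31-fold from signals of 51.1, 30.6 and 43.2 in wild type to 11.6 and 11.7 in R6/1. Among the largest all-array falls, Lrrc10b, of the striatal list, fell 3.3-fold, the ephrin receptor gene Epha10 3.12-fold and Gsg1l, which modulates AMPA receptors, 3.11-fold, and each of these 3 lay below all 6 wild-type arrays with cerebellum. Ces5a, a carboxylesterase, and Kcns3, a modulatory potassium channel subunit, fell 3.78-fold and 3.31-fold with all arrays (adjusted p = 0.041 and 0.039), but their R6/1 values of 30.8 and 58.6 and of 2.6 and 7.5 overlapped the 6 wild-type arrays with cerebellum, which ranged from 49.9 to 181 and from 6.1 to 31.9. Their differences at 18 and 27 weeks were 0.83 and 0.23 for Ces5a and 0.62 and 0.52 for Kcns3, opposite in sign to those at 22 weeks. Hspa1b, an inducible heat shock protein 70, fell 2.92-fold with all arrays (adjusted p = 0.00051), while 3 of 30 heat shock genes fell and 0 rose (median -0.06); Hspa8, the constitutive form, differed by 0.14.

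Among the called genes, the rises were fewer and smaller. Sin3b, a scaffold of histone deacetylase complexes, had signals of 394 and 391 in the R6/1 arrays and of 233, 252 and 218 in wild-type arrays 1, 2 and 3. Both R6/1 arrays lay above all wild-type arrays, by 1.66-fold with all arrays (adjusted p = 0.00059) and 1.67-fold against array 1 (adjusted p = 0.037). Acot1, which cleaves fatty acyl-CoA, had signals of 83.2 and 68.8 in the R6/1 arrays and of 25.4, 53.6 and 24.1 in wild-type arrays 1, 2 and 3, and rose 2.15-fold and 2.63-fold (adjusted p = 0.022 and 0.037). Nmi, a partner of STAT factors induced by interferon, had signals of 56 and 46.6 in the R6/1 arrays and of 19.8, 24.7 and 37.2 in wild-type arrays 1, 2 and 3, and rose 1.77-fold and 2.24-fold (adjusted p = 0.024 and 0.037). These were the 3 rises called with both references. Atad2b, a bromodomain protein, rose 2.01-fold with all arrays (adjusted p = 0.0098), with R6/1 signals of 345 and 354 against 188, 167 and 158. A second, much weaker probe set of Atad2b had a log2 difference of -0.09 (adjusted p = 0.93, limma). Parp12, an interferon-induced ADP-ribosyltransferase, rose 1.91-fold (adjusted p = 0.0026) and Nfe2l3, a transcription factor, 1.86-fold (adjusted p = 0.017). Cidea, a lipid droplet protein, rose 2.24-fold with all arrays, with a log2 difference of 0.64 from array 1 (adjusted p = 0.36). Uncx had the largest rise (4.27-fold, adjusted p = 0.0082), but it is a member of the granule cell list, its wild-type signals were 11.6, 0.6 and 5 and its log2 difference from the 6 arrays with cerebellum was 0.78 (adjusted p = 0.15). Afap1l2 was like it, with 1.17 with all arrays, 0.58 against array 1 and 0.42 against the 6 (adjusted p = 0.15). Vim, vimentin, rose 2-fold with all arrays (adjusted p = 0.0075), with signals of 496 and 511 against 346, 225 and 198, and its log2 difference was 0.42 against the 6 arrays with cerebellum (adjusted p = 0.0198).

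Interferon-induced genes had mostly positive differences, and some of them rose. Of 23 measured, 4 rose and 0 fell with all arrays (Ifi35, Ifih1, Ifitm3 and Psmb8; median 0.59), 0 were called against array 1 in the limma fit, and 21 of 23 had a positive difference from array 1 (median 0.51, against 0.02 for all genes). Ifitm3, a membrane protein that restricts viral entry, had signals of 235 and 381 in the R6/1 arrays and of 197, 172 and 166 in wild-type arrays 1, 2 and 3, a rise of 1.66-fold (log2 difference 0.73, adjusted p = 0.029) that rested on R6/1 array 2: without it the log2 difference was 0.39 (adjusted p = 0.437). For Ifi35 the log2 difference of 0.82 became 0.49 without that array (adjusted p = 0.469). Psmb8, an immunoproteasome subunit, had signals of 36.5 and 45.1 in the R6/1 arrays and of 21.9, 18.9 and 21.7 in wild-type arrays 1, 2 and 3, a rise of 1.76-fold (adjusted p = 0.0198). Rtp4 had signals of 55.9 and 120.4 in the R6/1 arrays and of 50, 31.9 and 35.6 in wild-type arrays 1, 2 and 3 and did not pass with all arrays (1.00, adjusted p = 0.069), but did against the 6 wild-type arrays with cerebellum (1.24, adjusted p = 0.022), as did Oasl2 (1.06) and Xaf1 (0.80). R6/1 array 2 was above R6/1 array 1 for Ifitm3, Ifi35, Rtp4, Oasl2, Xaf1 and Usp18, and Ifih1 was about equal in both. Of the microglia markers, 0 of 20 were called in either direction with both references in limma (median -0.06 with all arrays). Of the astrocyte list, 3 of 23 fell and Vim rose (median -0.28), and of the oligodendrocyte list 3 of 22 fell (median -0.12). The oligodendrocyte genes were Car2, carbonic anhydrase 2, with signals of 1104 and 1059 in the R6/1 arrays and of 1874, 1592 and 1504 in wild-type arrays 1, 2 and 3 (1.52-fold with all arrays, 1.73-fold against array 1, adjusted p = 0.0059), Mal (1.51-fold) and Fa2h (log2 difference -0.79, and -0.44 without R6/1 array 2, adjusted p = 0.489), while Mbp, the major myelin protein, differed by 0.01.

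The genes that followed the arrays without cerebellum were called with all arrays, yet the R6/1 arrays lay nearer to wild-type array 1 than to the other wild-type arrays. Kcnj9, a potassium channel subunit gated by G proteins, had signals of 81.5 and 89.4 in the R6/1 arrays and of 115, 252 and 366 in wild-type arrays 1, 2 and 3. Its log2 difference was -1.32 with all arrays (adjusted p = 0.027) and -0.41 against array 1 (adjusted p = 0.64), and arrays 2 and 3 were far above array 1. Gng7 and Adcy5, which couple dopamine receptors to cyclic AMP in striatal neurons, had all-array differences of -0.90 and -0.78 and differences of -0.37 and -0.39 from array 1. Arc, which regulates AMPA receptors at the synapse, had signals of 45.3 and 110.2 in the R6/1 arrays and of 141, 340.1 and 464 in wild-type arrays 1, 2 and 3: its difference was -1.91 ± 0.43 with all arrays (adjusted p = 0.021) and -0.94 ± 0.49 against array 1 (adjusted p = 0.55). Against the 6 wild-type arrays with cerebellum, which ranged from 141 to 285 for Arc, the difference was -1.62 (adjusted p = 0.015), so wild-type array 1 was the lowest of those arrays. Nr4a1, an orphan nuclear receptor, was alike, with -1.38, -0.69 and -1.07 (adjusted p = 0.021) in the 3 comparisons. Gfra2 (-1.08 and -0.32), Neto1 (-0.76 and -0.33) and 2900055J20Rik (-0.86 and -0.29) were the other large falls of this class. These falls also passed against the 6 wild-type arrays with cerebellum (limma). The differences there were -1.43 for Kcnj9 (adjusted p = 0.0099), -0.48 for Gng7 (0.017) and -0.53 for Adcy5 (0.024). For Gfra2, Neto1 and 2900055J20Rik they were -0.87 (0.026), -0.50 (0.044) and -0.53 (0.041). Kcnj9 ranged from 115 to 408 in those arrays, with array 1 the lowest. The class marks a size that changed with the reference, and no test of the 2 sizes against each other was made.

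Among the rises of this class, Tlx3 and Zic5 are known from hindbrain and cerebellum. Zic5, a zinc finger factor, had signals of 107 and 125 in the R6/1 arrays and of 77.9, 44.1 and 30.5 in wild-type arrays 1, 2 and 3, a difference of 1.20 with all arrays (adjusted p = 0.031), 0.54 against array 1 and 0.42 against the 6 arrays with cerebellum (adjusted p = 0.17). Pde1c, a phosphodiesterase activated by calmodulin, had signals of 109.8 and 136 in the R6/1 arrays and of 96.8, 48.2 and 51 in wild-type arrays 1, 2 and 3, with 0.92 and 0.32, and Tlx3 had 1.41 and 0.69. For these 3 genes the wild-type array with cerebellum stood between the R6/1 arrays and the 2 others. Mndal, of an interferon-inducible family, was in the same class (1.39 and 0.68) but kept a difference of 1.21 from the 6 arrays with cerebellum (adjusted p = 0.011). Fam13a, Ddr2, Nae1 and A930017K11Rik made up the rest, with all-array differences of 0.86, 0.79, 0.46 and 1.30 and differences of 0.37, 0.35, 0.22 and 0.33 from array 1. From the 6 arrays with cerebellum they differed by 0.27, 0.81, 0.20 and 0.67. Ddr2 and A930017K11Rik passed in that comparison (adjusted p = 0.021 for both, limma), and Fam13a and Nae1 did not. The 18-week wild-type array without cerebellum is not among the 5 arrays of this age, but was in the fit whose spread decided the calls. It was below the other 18-week wild-type arrays for 7 of these 8 rises (87.5%) and above them for 15 of the 18 falls (83.3%), against 49.5% and 50.5% of all genes. Among the genes of the class against both references it was above them for 270 of the 348 falls (77.6%) and below them for 79 of the 130 rises (60.8%), against the same shares of all genes.

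Gabra6, Pcp2 and Cbln3 had positive all-array differences far above those of the called genes, yet were not called: their wild-type arrays spread widely. Gabra6 had an all-array log2 difference of 4.66 ± 1.67 (adjusted p = 0.14), Cbln3 of 3.55 ± 1.51 (adjusted p = 0.23) and Neurod1 of 1.42 ± 0.58 (adjusted p = 0.201). Against array 1 the differences were 0.04, -0.60 and -0.03. In size classes set after the values were seen, of 52 genes at least 1 log2 unit higher in R6/1 with all arrays and not called, 39 (75%) followed the arrays without cerebellum, with a median of 1.28 with all arrays and 0.22 against array 1, and 35 of the 39 were lower in the 18-week array without cerebellum. Of 16 called genes that were at least 1 log2 unit higher, 4 (25%) followed them, and of 94 called genes at least 1 log2 unit lower, 4 (4.26%) did.

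Of 22 measured Purkinje cell genes, 7 fell against the 6 wild-type arrays with cerebellum, 1 (Rgs8) against array 1 and 2 (Rgs8 and Nefh) with the term for absent cerebellum. With all wild-type arrays 0 of 22 measured members were called in either direction (limma) and the median was 0.13, whereas against array 1 the median was -0.63, 21 of 22 differences were negative and Rgs8 was called. Against the 6 wild-type arrays with cerebellum 7 of 22 fell and 0 rose (Calb1, Car8, Fam107b, Gng13, Pcp2, Pvalb and Rgs8), and both R6/1 arrays lay below all 6 for 13 of 22, against 10.6% of all genes. Rgs8, which quenches G protein signals in Purkinje cells, had signals of 319 and 311 in the R6/1 arrays and of 727, 238 and 317 in wild-type arrays 1, 2 and 3. The R6/1 arrays were as low as the wild-type arrays that held no cerebellum, and below the range of 582 to 731 of the 6 wild-type arrays with it. Its log2 difference was -0.27 ± 0.34 with all arrays (adjusted p = 0.75), -1.19 ± 0.17 against array 1 (adjusted p = 0.0082) and -1.10 ± 0.17 with the term for absent cerebellum (adjusted p = 0.0045). The call against array 1 did not hold without either R6/1 array (adjusted p = 0.0737 and 0.0533) or with the 22-week arrays alone (0.0598), at a difference between -1.21 and -1.17. Pcp2 was at 794 and 786 in R6/1 against 1069 to 1506 in the 6 wild-type arrays with cerebellum (log2 difference -0.74 ± 0.15, adjusted p = 0.015). Calb1, calbindin, a calcium buffer also present in forebrain neurons, was at 1323 and 1421 against 1878 to 2148 (-0.53 ± 0.07, adjusted p = 0.00088). Gng13, a G protein subunit, was at 214 and 236 against 396 to 561 (-1.04 ± 0.12, adjusted p = 0.00013), and Car8, which modulates calcium release, at 824 and 629 against 1047 to 1359.8 (-0.72 ± 0.17, adjusted p = 0.034). In each of these genes both R6/1 arrays lay below the lowest of the 6, while Gabra6, the granule cell marker, was within the wild-type range on both. In wild-type arrays 2 and 3, without cerebellum, Gng13 read 211 and 307, Calb1 963 and 1057, Car8 59.4 and 70.1, and Pcp2 9.6 and 2.5. Part of the signal of Rgs8, Gng13 and Calb1 thus came from other regions, and in which region these genes were lower was not tested.

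Granule cells are the other main neuron of the cerebellar cortex, and their markers were less uniform. Against the 6 arrays with cerebellum 6 of 21 granule cell markers fell and 0 rose, the median against array 1 was -0.16. Gabra6 was at 1017 and 1396 against 936 to 1570.0 in the 6 arrays (-0.11 ± 0.19, adjusted p = 0.84) and Neurod1 at 425 and 606 against 518 to 693 (-0.21 ± 0.13, adjusted p = 0.46). Both overlapped wild type. The synaptic organisers Cbln1 and Cbln3 were lower, at 631 and 656 against 793 to 1179 (-0.66 ± 0.14, adjusted p = 0.017) and at 555 and 626 against 658 to 1119 (-0.64 ± 0.16, adjusted p = 0.041). The metabotropic receptor gene Grm4, at the output synapses of granule cells, is not in the granule cell list. It was at 96.1 and 93.2 against 169 to 192 (-0.93 ± 0.12, adjusted p = 0.00056, limma). Gabrd, a GABA receptor subunit of granule cells and forebrain, was at 196 and 212 against 333 to 395 (-0.84 ± 0.14, adjusted p = 0.0035, limma). In wild-type arrays 2 and 3, without cerebellum, Grm4 read 85.1 and 93.2 and Gabrd 252 and 309. The difference between the granule and Purkinje lists was not tested. Car7, carbonic anhydrase 7, was the only other fall called against array 1 and not with all arrays. Its log2 difference was -0.93 against array 1 and -0.64 with all arrays (adjusted p = 0.060, limma). Other, weaker probe sets of Car7 read -0.44 and -0.37 against array 1 and were not called.

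**Figure D4:**
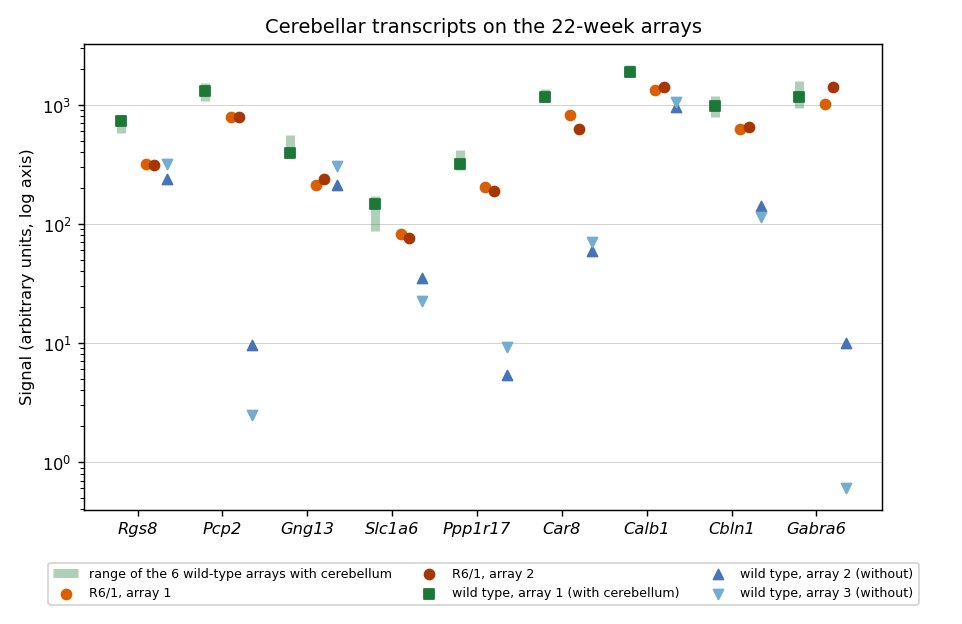
Signal (log axis, arbitrary units) of 9 cerebellar transcripts on each array of 22 weeks; points are arrays and the green bars span the 6 wild-type arrays with cerebellum of all ages. Rgs8, at 319 and 311 in R6/1, and Pcp2, Gng13, Slc1a6, Ppp1r17, Car8, Calb1 and Cbln1 lie below the bar in both R6/1 arrays, while Gabra6 lies within it; the wild-type arrays without cerebellum lie far below for most.

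The rises called only against array 1 rested on that array. Pofut1, an enzyme that adds fucose to Notch, had signals of 93.4 and 93.4 in the R6/1 arrays and of 39.6, 79.1 and 68.6 in wild-type arrays 1, 2 and 3, and Sema6c, a semaphorin, had signals of 50 and 67 in the R6/1 arrays and of 11.2, 48.4 and 47.9 in wild-type arrays 1, 2 and 3. In both genes wild-type array 1 was low while the other wild-type arrays were closer to R6/1. The log2 differences from array 1 were 1.13 and 1.93 (adjusted p = 0.0064 for both), and those from all 6 arrays with cerebellum 0.38 and 0.65 (adjusted p = 0.35 and 0.34). A second probe set of each gene read -0.43 and -0.19 against array 1. Atrx, a chromatin remodeller, was the third (0.62, adjusted p = 0.047; 0.24 against the 6 arrays, adjusted p = 0.32). Htt itself had signals of 122 and 103 in the R6/1 arrays and of 73.5, 143 and 156 in wild-type arrays 1, 2 and 3, with differences of -0.07 (adjusted p = 0.94) and 0.58 (adjusted p = 0.57); whether its probe set reads the transgene was not analysed here, so it does not check the genotype labels.

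Across the 24 lists, the order by median difference from array 1 placed the striatal, neuropeptide, immediate early and Purkinje cell lists lowest and the interferon-induced list highest. Apart from the cerebellar lists, the choice of reference moved the lists of hindbrain and olfactory bulb: the 7 hindbrain and spinal genes had a median of 0.85 with all arrays and -0.52 against array 1, with 0 called in either limma fit, and the 14 olfactory bulb genes -0.70 and -0.15. The 2 olfactory genes called with all arrays were lower. Of 13 hypothalamic genes 4 fell with all arrays, with medians of -0.51 and -0.59. Choroid plexus and ependymal genes (15 measured) and pituitary genes (4 measured) had 0 calls with either reference in limma. Of 27 meningeal and vascular genes 3 rose (Igf2, Igfbp2 and Fmod) and Col6a1 fell with all arrays; Igf2 had signals of 284 and 411 in the R6/1 arrays and of 199.5, 220.0 and 250.2 in wild-type arrays 1, 2 and 3 (log2 difference 0.61, and 0.35 without R6/1 array 2, adjusted p = 0.425), and R6/1 array 2 was the higher of the pair for Igf2, Igfbp2 and Fmod. Of 20 cholesterol synthesis genes 1 fell, with a median of -0.25 with all arrays and -0.19 against array 1.

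**Figure D5:**
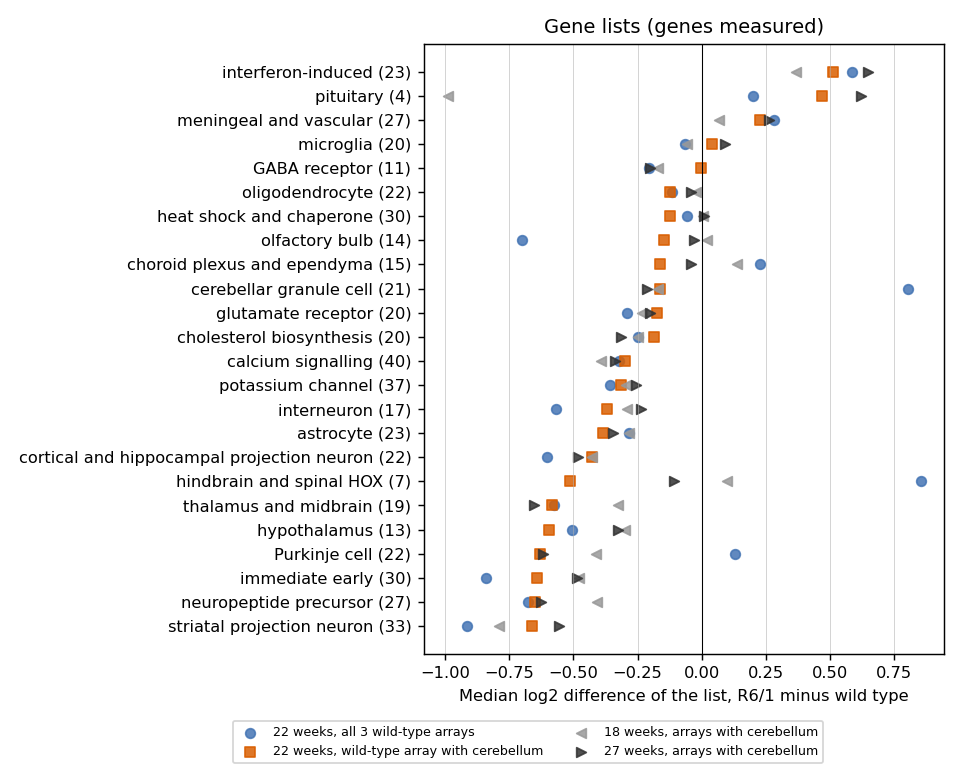
Median log2 difference (x axis, R6/1 minus wild type) of each of 24 gene lists (y axis, number of genes measured) at 22 weeks with all 3 wild-type arrays, at 22 weeks against the wild-type array with cerebellum, and at 18 and 27 weeks with arrays that hold cerebellum. The striatal list lies between -0.92 and -0.56 in all 4, while the granule cell list lies at 0.80 with all arrays and -0.16 against the array with cerebellum.

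The other ages, whose arrays are separate from those of 22 weeks, gave the same direction for most of these genes. In the fit of the 15 arrays with cerebellum, 335 of the 348 lower genes were also negative at 18 weeks and 337 at 27 weeks, against 45.1% and 43.1% of all genes. Of the 130 higher genes, 122 and 126 were also positive. The median differences were smaller: -0.45 and -0.47 at 18 and 27 weeks for the lower genes, and 0.30 and 0.29 for the higher ones, in genes chosen for their size at 22 weeks. Penk differed by -1.38, -1.43 and -1.18 at 18, 22 and 27 weeks, Pmch by -1.74, -1.77 and -1.96, and Rgs8 by -0.66, -1.19 and -1.05. Cartpt was less even, at -0.10, -1.78 and -1.55. The Purkinje list had medians of -0.41, -0.63 and -0.62 at these ages. The 22-week difference set against the mean of the 18- and 27-week differences gave 0 called probe sets in limma, with 1083 of 27022 (4.01%) at an unadjusted p under 0.05. The genes with the smallest p in that test were Sema6c, Pofut1, Polr3k, Kcp and Cdr2l, and Polr3k was low in wild-type array 1 (67.2) beside 204 and 202 in the other wild-type arrays and 288 and 364 in R6/1.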

How the data were processed

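Signal was measured in total RNA of 18 mouse hemispheres on 1 array each, grouped by the titles of the samples. The deposited values are linear signal intensity, made with MAS5 per the submitters' processing notes, in a version not given in the sources used. The authors' scaling gave a 2% trimmed mean of 99.6 to 99.7 on every array, so nothing was rescaled. An array has no read depth, and the number of mice limits the precision. The title of each sample carries its own code, and p-values measure only the spread between these samples.

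Of 45101 probe sets 64 controls were left out. By the platform annotation 34945 had 1 gene, 932 several and 9160 none, and 34741 had their symbol checked against current names. Probe sets with a mean signal above the 40th percentile (16.1) entered the tests (27022 probe sets, 12582 genes). The scale was log2(signal + 5.4), with the offset at the 20th percentile. A log2 difference on this scale understates changes of weak probe sets. Differences were fitted with limma 3.58.1 in R 4.3.3 (1 mean per genotype and age, variance trend, Benjamini-Hochberg, threshold 0.05), and the scripts were tested on simulated data. Arrays with Gabra6 under 100 were taken to lack cerebellum, and the comparison against wild-type array 1 used the 15 arrays above that level. The comparison against all 6 wild-type arrays with cerebellum was an alternative of it.

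The members and the 24 gene lists were chosen with earlier results of these data known. Named genes were the 12 largest falls and rises against both references (called with all arrays and keeping at least 0.5 of the difference against array 1), the 8 largest falls and rises that followed the arrays without cerebellum, up to 5 genes in each direction called only against array 1, the 3 members of each list with the smallest p in the 15-array fit, the 5 genes with the smallest p of the age contrast, and Htt and the marker genes. Any other gene was picked after its values were seen. Promoter sequences are from RefSeq. Alternatives were other offsets, filters, a quantile normalization, array weights, a sex term, no variance trend, the 22-week arrays alone, each 27-week R6/1 array placed at 22 weeks, and leaving out arrays.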

Additional observations from a re-analysis of the deposited data

How the results depend on the processing

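Counts of probe sets are given first as lower and higher. In the all-array comparison (562 and 236 as reported) they were 165 and 18 with the arrays of 22 weeks alone, 977 and 643 with array weights, and 1018 and 629, 841 and 485, 953 and 647, or 832 and 530 with 27-week R6/1 array 1, 2, 3 or 4 placed at 22 weeks; without a filter 155 were higher. Against array 1 (35 and 11) they were 3 and 4 with the arrays of 22 weeks alone, 102 and 43 with array weights, 18 and 5 without a variance trend, 108 and 43, 61 and 28, 72 and 26, or 57 and 24 with those 4 arrays placed at 22 weeks, and 572 and 206 with all 6 wild-type arrays with cerebellum as the reference; an offset of 1 gave 20 higher and a sex term 7. With the cerebellum term (125 and 34) they were 211 and 73 with array weights, 77 and 22 without a trend, and 301 and 104, 185 and 67, 219 and 74, or 190 and 83 with those 4 arrays placed at 22 weeks; without a filter 21 were higher. The classes (348 genes lower and 130 higher against both references by size, 26 following the arrays without cerebellum) became 113, 6 and 0 with the arrays of 22 weeks alone, 513, 284 and 192 with array weights, and 575, 338 and 86, 479, 249 and 77, 530, 341 and 88, or 484, 295 and 63 with those 4 arrays placed at 22 weeks; 83 were higher without a filter and 9 followed without a trend. Leaving out single arrays, the 18-week R6/1 array 3 included, which was added after the data were seen, gave ranges of 140 to 806 and 16 to 538 for the all-array comparison, 6 to 70 and 2 to 31 against array 1, 1 to 208 and 0 to 62 with the cerebellum term, where the lowest values came without wild-type array 1, and 94 to 435, 5 to 200 and 0 to 42 for the classes. The age contrast called 0 probe sets in each alternative that could be fitted, with limma. The cause of these shifts was not tested, apart from the smaller number of arrays where some were left out. No gene checked that was called in a comparison changed direction in its alternatives. For the calls with all arrays, leaving out 1 array could not change a direction. Genes not called in a comparison changed sign in 110 instances, counted over genes, comparisons and alternatives. No paired analysis was possible because the titles carry no replicate numbers that the groups share. The comparison against array 1 was not run without that array.

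The main limits are the 2 R6/1 arrays and the single wild-type array with cerebellum at this age. Cerebellar content and genotype are confounded in the other 2 wild-type arrays, and the term for it rests on 3 arrays at 2 ages. Olfactory bulb content differed in wild-type array 2 and was not modelled. Weak signals near the offset, such as those of Egr2, Uncx and Kcns3, have uncertain sizes.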
